A study of Homo sapiens with 8 samples.

Results

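The mitochondrial ribosome proteins examined here are the products of 78 nuclear genes whose symbols begin with MRPL or MRPS, measured in A549 cells after depletion of LY6K-AS or YWHAG. The genes were taken by symbol and not by their values: every protein-coding gene of GENCODE release 29 whose symbol is MRPL or MRPS followed by a number was used. They made up 78 of 66206 genes in each of the 2 deposited tables, 49 under MRPL symbols and 29 under MRPS symbols, on 21 chromosomes. A549 is a human lung adenocarcinoma cell line, grown here in DMEM with serum. The 8 libraries fell into 4 groups of 2. LNA gapmers, antisense oligonucleotides that recruit RNase H, were given at 25 pmol as a scramble control or directed at the long non-coding RNA LY6K-AS. Small interfering RNAs were given at 40 pmol, either scrambled or directed at YWHAG, the gene of 14-3-3 gamma. The knockdown libraries are titled LNA1 and LNA3, and si1 and si2, so each pair may hold 2 different reagents, and they are called LY6K-AS knockdown 1 and 2 and YWHAG knockdown 1 and 2 here. No label states that the 2 libraries of a group are separate cultures, and p-values then reflect the spread between libraries, part of which may be technical. Numbers 2 and 3 of the siRNA controls are those of their columns.

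The mitochondrial ribosome translates the few proteins that the mitochondrial genome encodes, all of them parts of the respiratory chain and ATP synthase. Its ribosomal RNAs are transcribed inside the organelle, while every one of its proteins is made from a nuclear gene in the cytosol and imported. Many of these proteins descend from bacterial ribosomal proteins, and others exist only in mitochondrial ribosomes, where they took over surface positions as the RNA shrank. By assignment to the known structures, 51 of the 78 genes encode large-subunit proteins and 26 encode small-subunit proteins. MRPS30 and MRPS18A sit in the large subunit in spite of their symbols, and MRPS36 is in neither, since its product is an adaptor of the 2-oxoglutarate dehydrogenase complex.

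The promoters are shown first, because nuclear respiratory factor 1, ETS-family GABP and YY1 are the regulators classically tied to nuclear genes for mitochondrial proteins. RefSeq promoter windows on GRCh38.p14, running from 250 bases before to 50 bases after the start, were found for 69 of the 78 genes. No window was available for MRPL35, first by p among members lower after LY6K-AS knockdown. The same holds for MRPL10, first by p among members higher after YWHAG knockdown. On either strand, the ETS core CCGGAAG was present in 29 of 69 windows, or 42.0%, against 10.7% of 27305 windows of all genes and 19.7% of 9687 windows of the genes tested in the LNA table. The YY1 letters AAGATGGC were in 20 windows, or 29%, against 3.03% of all windows and 5.64% of those of tested genes. The NRF1 letters GCATGCGC were in 6 windows, or 8.70%, against 3.27% and 5.60%. The SP/KLF letters GGGCGG were in 60.9% against 44.6% and 71.4%, the NFY letters CCAAT in 29% against 35.7% and 36.4%, and the E-box CACGTG in 8.70% against 7.43% and 10.4%. No searched motif contains another, matches on opposite strands can overlap each other, and a match describes letters only.

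Windows of 7 genes are printed 5′ to 3′ on the gene's own strand, with ETS, YY1 and NRF1 matches in capitals. MRPL3 (chr3:131502922-131503221, minus strand), MRPL47 (chr3:179604589-179604888, minus) and MRPL33 (chr2:27771469-27771768, plus) were among the lowest after LY6K-AS knockdown. MRPL34 (chr19:17292323-17292622, plus) and MRPS12 (chr19:38930694-38930993, plus) had the smallest p among the genes that were higher there. MRPL17 (chr11:6683291-6683590, minus) carries 3 NRF1 matches, the most of any window. That count includes matches on opposite strands that overlap in its first capitalised stretch. MRPS10 (chr6:42217812-42218111, minus) had the smallest p for a difference between the knockdowns.
MRPL3: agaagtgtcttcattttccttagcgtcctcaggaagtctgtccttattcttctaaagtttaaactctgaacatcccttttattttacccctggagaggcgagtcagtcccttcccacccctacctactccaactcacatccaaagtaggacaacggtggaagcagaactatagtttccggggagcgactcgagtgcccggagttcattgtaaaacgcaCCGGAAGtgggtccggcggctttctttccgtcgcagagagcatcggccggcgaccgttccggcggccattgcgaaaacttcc
MRPL47: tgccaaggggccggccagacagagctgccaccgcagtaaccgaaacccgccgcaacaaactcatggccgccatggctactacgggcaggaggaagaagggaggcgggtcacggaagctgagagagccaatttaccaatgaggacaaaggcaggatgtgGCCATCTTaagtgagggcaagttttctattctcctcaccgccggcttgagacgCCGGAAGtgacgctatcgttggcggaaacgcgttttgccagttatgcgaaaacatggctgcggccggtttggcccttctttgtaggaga
MRPL33: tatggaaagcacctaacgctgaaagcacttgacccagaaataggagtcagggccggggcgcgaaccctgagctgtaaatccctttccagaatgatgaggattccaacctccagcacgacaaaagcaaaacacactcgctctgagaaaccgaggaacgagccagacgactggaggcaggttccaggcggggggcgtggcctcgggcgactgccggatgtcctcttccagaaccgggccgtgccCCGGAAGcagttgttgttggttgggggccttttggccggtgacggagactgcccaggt
MRPL34: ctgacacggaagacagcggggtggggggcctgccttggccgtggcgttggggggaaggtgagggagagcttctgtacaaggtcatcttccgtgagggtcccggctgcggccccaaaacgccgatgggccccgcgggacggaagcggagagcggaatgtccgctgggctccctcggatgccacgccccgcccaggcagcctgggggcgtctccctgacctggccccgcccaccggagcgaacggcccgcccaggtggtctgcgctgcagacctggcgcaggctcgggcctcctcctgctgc
MRPS12: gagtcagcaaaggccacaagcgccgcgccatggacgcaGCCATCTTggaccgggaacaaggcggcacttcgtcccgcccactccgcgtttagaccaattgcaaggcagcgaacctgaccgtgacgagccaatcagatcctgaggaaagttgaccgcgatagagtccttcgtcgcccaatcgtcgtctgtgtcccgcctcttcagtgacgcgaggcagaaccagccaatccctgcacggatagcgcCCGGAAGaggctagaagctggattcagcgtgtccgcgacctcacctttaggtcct
MRPL17: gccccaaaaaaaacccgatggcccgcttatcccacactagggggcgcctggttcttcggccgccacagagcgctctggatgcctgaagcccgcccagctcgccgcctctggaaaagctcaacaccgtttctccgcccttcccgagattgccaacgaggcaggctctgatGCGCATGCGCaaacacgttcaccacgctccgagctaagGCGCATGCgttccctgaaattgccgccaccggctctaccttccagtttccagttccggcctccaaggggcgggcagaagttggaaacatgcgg
MRPS10: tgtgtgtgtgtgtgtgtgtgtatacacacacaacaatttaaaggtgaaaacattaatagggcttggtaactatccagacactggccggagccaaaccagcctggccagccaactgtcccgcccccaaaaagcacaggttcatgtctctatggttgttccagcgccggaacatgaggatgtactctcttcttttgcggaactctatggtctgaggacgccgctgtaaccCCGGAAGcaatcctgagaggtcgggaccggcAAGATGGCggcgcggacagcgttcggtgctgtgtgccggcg
The 3 low genes each hold 1 ETS core, with a YY1 match besides in MRPL47, and so does MRPS12, while MRPL34 holds none of the 3 capitalised motifs and 3 SP/KLF matches. Among all 29 genes with an ETS core the median log2 change after LY6K-AS knockdown was -0.20 with 20 lower. Among the 40 without it was -0.13 with 31 lower, and 49.7% of all genes tested were lower. The corresponding medians after YWHAG knockdown were -0.07 over 29 genes and 0.07 over 39. For YY1 letters the LY6K-AS medians were -0.18 over 20 genes with a match (15 lower) and -0.13 over 49 without (36 lower). For SP/KLF letters they were -0.11 over 42 genes with a match (26 lower) and -0.20 over 27 without (25 lower). These are descriptions of overlapping sets, and no test was made on them.

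MRPL46 and MRPS11 are divergent neighbours on chromosome 15 whose windows overlap, at chr15:88467339-88467638 on the minus strand and chr15:88467458-88467757 on the plus strand. They are printed because they are a pair of subunit genes, 1 for each subunit, that share promoter sequence.
MRPL46: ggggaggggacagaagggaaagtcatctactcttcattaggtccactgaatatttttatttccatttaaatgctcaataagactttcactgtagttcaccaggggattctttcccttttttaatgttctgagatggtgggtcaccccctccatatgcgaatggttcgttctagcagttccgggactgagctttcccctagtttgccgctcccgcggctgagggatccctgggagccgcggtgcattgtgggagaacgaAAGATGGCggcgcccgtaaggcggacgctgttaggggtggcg
MRPS11: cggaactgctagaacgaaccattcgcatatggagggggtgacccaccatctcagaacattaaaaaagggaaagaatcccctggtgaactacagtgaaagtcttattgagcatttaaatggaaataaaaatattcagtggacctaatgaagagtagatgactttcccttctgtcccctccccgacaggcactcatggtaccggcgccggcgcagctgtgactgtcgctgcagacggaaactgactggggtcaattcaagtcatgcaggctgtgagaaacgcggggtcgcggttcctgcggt
MRPL46, a large-subunit gene, holds 1 YY1 match and MRPS11, a small-subunit gene, none of the 3 motifs. MRPL46 measured 2.23 and 2.39 RPKM in the LNA controls and 2.12 and 1.73 RPKM after LY6K-AS knockdown. MRPS11 measured 8.47 and 8.67 RPKM in the same controls and 9.48 and 8.83 RPKM after knockdown. The knockdown values lay below both controls for MRPL46 and above both for MRPS11, with log2 changes of -0.18 ± 0.12 (SE) and 0.09 ± 0.09. Neither passed the test, with limma adjusted p of 0.373 and 0.575.

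RPKM are reads per kilobase of merged exon length, scaled to library depth, and tests used log2(RPKM + 1) within each table in limma, with Benjamini-Hochberg adjustment over all genes tested and a threshold of 0.05. Changes are knockdown minus scramble control on that scale, with the standard error, 2 libraries a group. The total reads that the tables imply ran from 26.2 to 34.0 M in the LNA libraries and 33.7 to 34.6 M in the siRNA libraries, and 3 reads correspond to 0.0868 to 0.115 RPM (reads per M of depth, M being 1e6). Mitochondrially encoded genes took 8.43% and 6.43% of reads in the LNA controls, 8.37% and 4.12% in LY6K-AS knockdowns 1 and 2, 15.3% and 18.2% in siRNA controls 2 and 3, and 14% and 18.2% in YWHAG knockdowns 1 and 2. All 6 epithelial markers (such as KRT18 and EPCAM) reached 0.5 RPKM in every library, against 1 of 6 immune, 1 or 2 of 6 fibroblast and 0 of 5 endothelial markers. YWHAG had 163 and 158 RPKM in the siRNA controls and 13.5 and 4.91 RPKM in the knockdowns, both far below the controls, with an adjusted p of 0.130. In the LNA libraries YWHAG had 143 and 145 RPKM in the controls and 133 and 101 RPKM after LY6K-AS knockdown. Both were below the controls there too (-0.31 ± 0.16, limma adjusted p 0.291). LY6K-AS, taken here to be the gene that GENCODE names LNCOC1, was counted with 34 and 17 reads in its controls against 3 and 8 after knockdown, too few to pass the filter of 0.5 RPKM in 2 libraries. No label of this study gives an identifier for LY6K-AS, so that correspondence is an assumption.

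In the scramble controls nearly all of the family was measured above the filter. All 78 genes passed the filter in the LNA table and 77 in the siRNA table, where MRPS24 stayed below it. Their median level was 16.8 RPKM in the LNA controls and 17.2 RPKM in the siRNA controls, and the 78 genes together took between 0.352% and 0.424% of all reads in the 8 libraries. Large-subunit genes had medians of 17.6 and 16.7 RPKM in the 2 kinds of control, and small-subunit genes 15.3 and 18.6 RPKM. The lower and upper quartiles of the family were 8.59 and 34.0 RPKM in the LNA controls, so genes whose products are built into the same complex differed widely in level.

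The highest mean over the 4 controls was that of MRPS34, a mitochondria-specific protein of the small subunit, with 128 and 134 RPKM in the LNA controls and 46.7 and 51.9 RPKM in the siRNA controls. MRPL51, a mitochondria-specific large-subunit protein, followed with 94.0, 87.4, 72.2 and 66.0 RPKM in the same order. MRPS26 had 88.3, 90.2, 45.0 and 50.5 RPKM. MRPS34 stood above both of these in the LNA controls and below MRPL51 in the siRNA controls, so the order at the top depended on the table. MRPL15, a relative of bacterial L15, read 58.4, 58.5, 77.4 and 72.0 RPKM, and MRPL24 66.1, 62.6, 54.4 and 55.5 RPKM. In the siRNA controls MRPL15 had the highest mean of the family, and its 2 values overlapped those of MRPL51.

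At the low end, MRPS24, the relative of bacterial S3, had 0.687 and 0.764 RPKM in the LNA controls and 0.189 and 0.322 RPKM in the siRNA controls. MRPL38 had 2.05, 1.99, 0.824 and 0.943 RPKM. MRPS18C read 1.14, 1.09, 2.20 and 1.82 RPKM, so its order against MRPL38 was opposite in the 2 tables. MRPL53 (2.63, 2.83, 1.90 and 2.50 RPKM) and MRPL46 (2.23, 2.39, 2.87 and 2.89 RPKM) completed the lowest 5 and did not keep 1 order either. Several of these share exon bases with a neighbouring gene: 23.2% of MRPS24, 41.1% of MRPL38, 40.2% of MRPS18C with ABRAXAS1 and 45.2% of MRPL53 with CCDC142. Of the 78 genes 41 share at least 1 exon base with another gene, 10 at least 25% and 1, MRPL12, at least 50%, and how reads there were assigned is not given.

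Levels in the LNA and siRNA controls had a Spearman rho of 0.86 over the 78 genes, which share cell line, libraries and depth within each table. The log2 ratio of LNA to siRNA control levels followed transcript GC content with a rho of 0.64. MRPL41, the most GC-rich transcript at 71.9%, had 61.8 and 66.0 RPKM in the LNA controls and 18.5 and 25.9 RPKM in the siRNA controls. MRPS12 had 79.5 and 80.9 against 23.8 and 30.9 RPKM. In the other direction MRPS36 had 5.43 and 3.53 against 19.0 and 14.8 RPKM, and MRPL45, which helps to anchor the ribosome at the inner membrane, 2.85 and 2.25 against 14 and 11.4 RPKM. These ratios cross 2 tables that were normalized separately, with different reagents, and are values only. GENCODE names 75 pseudogenes for 34 of the 78 genes, and only those of MRPL45 and MRPS31 reached 1 RPKM in any library, with maxima of 2.57 and 1.13 RPKM.

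**Figure D1:**
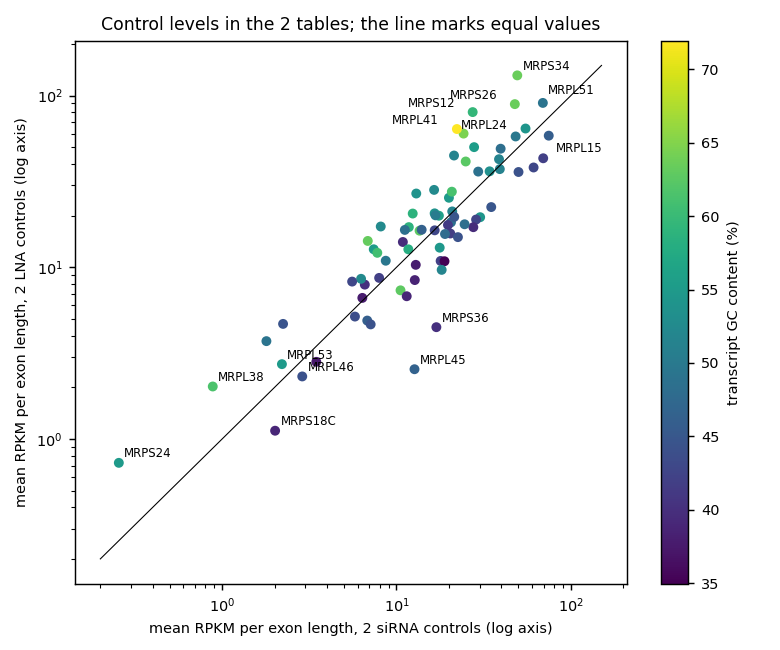
Mean RPKM per exon length of the 78 mitochondrial ribosomal protein genes in the 2 LNA control libraries (vertical, log axis) against the 2 siRNA control libraries (horizontal, log axis), coloured by transcript GC content. GC-rich genes such as MRPL41 and MRPS12 lie above the line of equal values, and MRPL45 and MRPS36 lie below it.

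After LY6K-AS knockdown most of the family was lower, by a small amount. Of the 78 genes 58 had a log2 change below 0, against 49.7% of all 14662 genes tested, and the median change was -0.14 against 0.002 for all genes. In 46 genes both knockdown libraries lay below both controls, against 30.5% of all genes. In 10 genes both lay above, against 31.4%. No gene passed the adjusted threshold, in the family or in the table (0% of 14662), and the smallest adjusted p in the family was 0.103. At an unadjusted limma p under 0.05 there were 21 lower genes, against 11.7% of all genes, and 2 higher ones, against 13.6%. Both knockdown libraries showed the shift: the median difference from the control mean was -0.12 in knockdown 1 with 60 genes lower and -0.17 in knockdown 2 with 56 lower, while the 2 controls differed from each other by a median of -0.03. Over all genes tested 50.3% were lower in knockdown 1 and 48.3% in knockdown 2, with medians of -0.001 and 0.02. A level relative to all reads in bulk RNA cannot tell less RNA in every cell from fewer cells that express these genes.

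GC content and scaling were examined beside this shift. Over the family the change followed transcript GC content, with a Spearman rho of 0.70 (0.53 for knockdown 1 and 0.72 for knockdown 2), and over all genes tested with a rho of 0.54, while the difference between the 2 controls had a rho of 0.44 over the family. Once the GC trend over all genes was taken out of each library, an alternative for counts added after the data were seen, the family's median was -0.13 with 64 of 78 genes lower, against 50.2% of all genes. In that fit 16 members were lower at an unadjusted p under 0.05, against 10.2% of all genes, and 0 were higher, against 9.20%. With reads of mitochondrially encoded genes left out of the totals the median was -0.16 with 59 lower, and with each library centred on its median -0.14 with 57 lower.

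**Figure D2:**
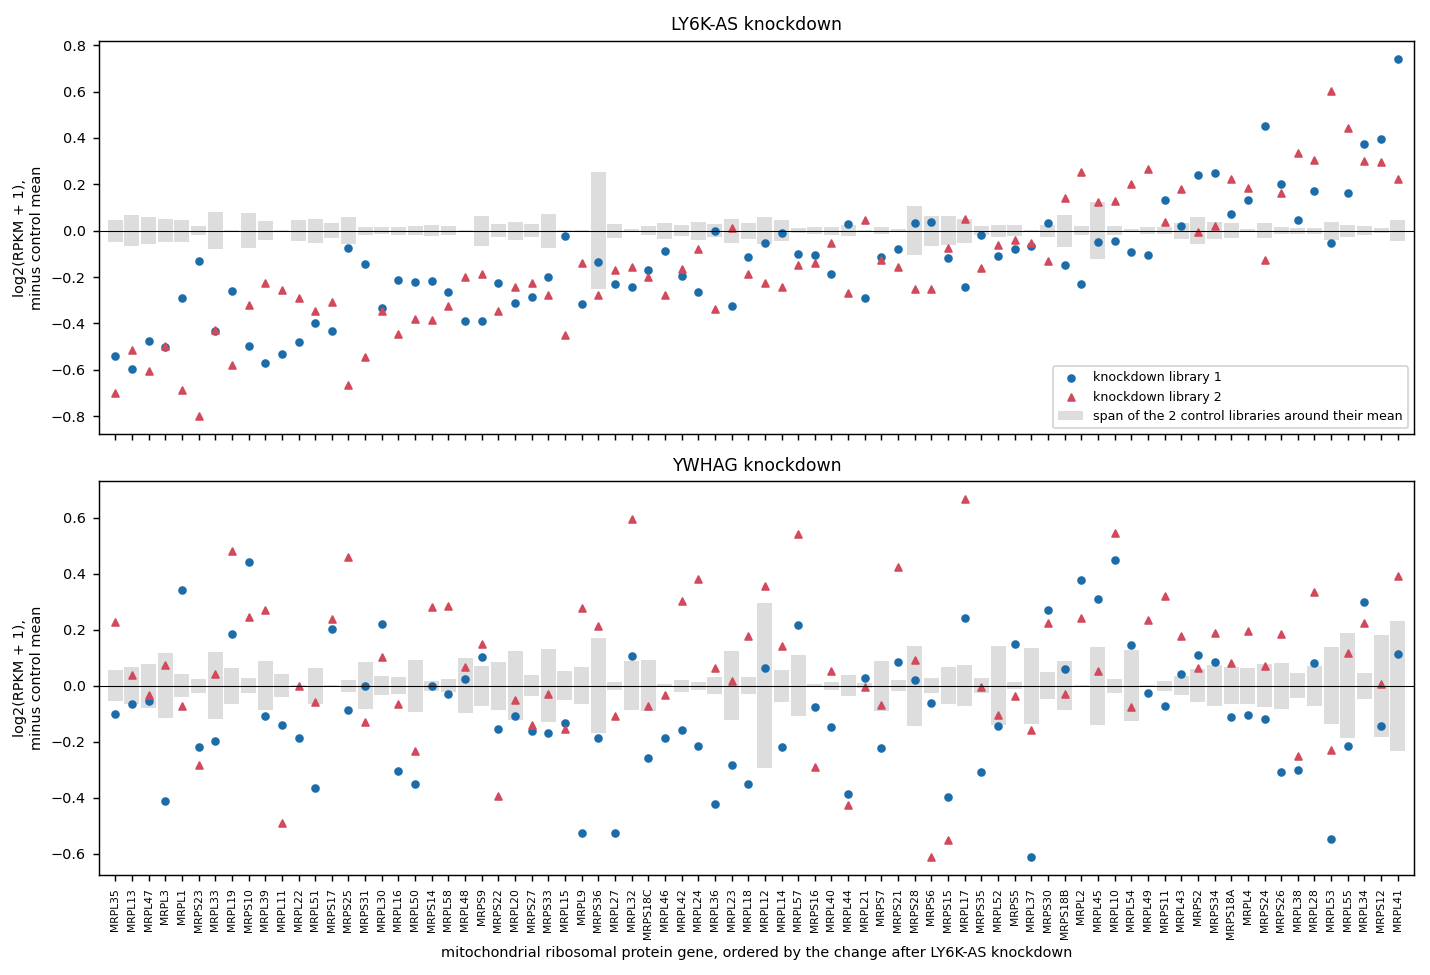
Difference of each knockdown library from the mean of its 2 controls on the log2(RPKM + 1) scale, for the 78 genes ordered by their change after LY6K-AS knockdown (upper panel) and in the same order for YWHAG knockdown (lower panel). Circles and triangles are knockdown libraries 1 and 2, and grey bars span the 2 controls; most symbols in the upper panel lie below the bars, and those in the lower panel scatter to both sides.

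The size of the shift differed between 3 GC classes of 26 genes and stood below that of all genes in each. In the class with the lowest GC content (35.0 to 44.6%) all 26 genes were lower, against 75.8% of the 4296 tested genes in that range, with a median of -0.30 against -0.16. Both knockdown libraries were below both controls in 22 of these 26 genes, and in 53.7% of all genes in that range. In the middle class (44.8 to 53.4%) 24 of 26 were lower, against 57.7% of all genes in that range, with a median of -0.14 against -0.04. In the class with the highest GC content (53.7 to 71.9%) 8 of 26 were lower, against 21.5% of all genes in that range, with a median of 0.11 against 0.23. Once the fitted trend with GC content was subtracted, the classes had medians of -0.15, -0.13 and -0.14. That step takes the trend over all genes out of each library, so the loss of an ordering by GC is largely built into it. The part of GC content in the family's values was not tested.

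**Figure D3:**
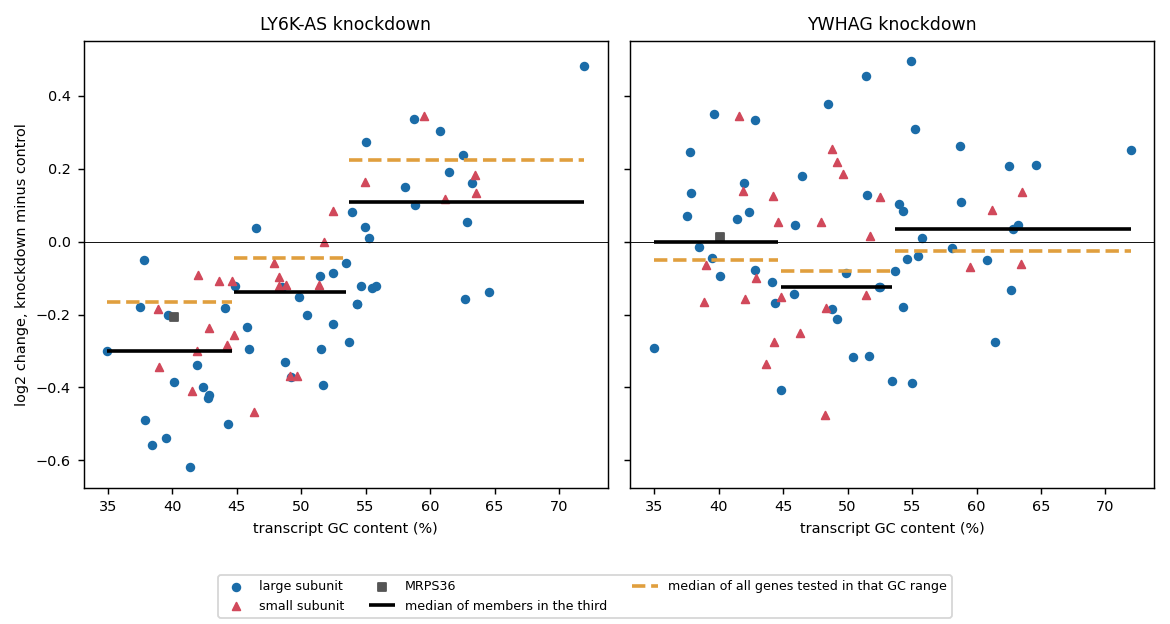
Log2 change against transcript GC content (%) for the 78 genes after LY6K-AS knockdown (left) and the 77 tested after YWHAG knockdown (right). Solid lines are family medians in the 3 GC classes and dashed lines the medians of all genes tested in the same GC range; in the left panel every solid line lies below its dashed line, from -0.30 against -0.16 to 0.11 against 0.23.

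Both subunits took part. The 51 large-subunit genes had a median change of -0.16 with 37 lower, and the 26 small-subunit genes -0.12 with 20 lower. Within the large subunit the 30 genes of universal or bacterial families had a median of -0.20 with 24 lower and 12 at an unadjusted p under 0.05, and the 21 mitochondria-specific genes -0.08 with 13 lower and 4 at that level. The shares of all genes tested were 49.7% lower and 11.7% lower at that p, so the 13 of 21 and 4 of 21 stood nearer to them. In the small subunit the order was the opposite, with -0.11 over 16 genes of universal or bacterial families and -0.25 over 10 mitochondria-specific ones. MRPS36, outside the ribosome, had 5.43 and 3.53 RPKM in the controls and 3.92 and 3.45 RPKM in the knockdowns, which overlapped.

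The genes with the smallest p among those lower in both libraries all encode large-subunit proteins with bacterial relatives. MRPL35 (chr2:86199355-86213794, plus strand) had 18.2 and 17.0 RPKM in the controls and 11.8 and 10.5 RPKM after knockdown, a change of -0.62 ± 0.10 with an adjusted p of 0.103. MRPL3 (chr3:131462212-131502983, minus strand), whose relatives reach towards the peptidyl transferase centre, had 37.2 and 34.6 RPKM and then 25.0 and 25.1 RPKM, a change of -0.50 ± 0.09. For both genes the knockdown libraries lay close together and well below the controls. MRPL47, a relative of bacterial L29 near the exit of the peptide tunnel, went from 17.9 and 16.4 to 12 and 10.9 RPKM (-0.54 ± 0.10). MRPL13 went from 8.86 and 7.99 to 5.22 and 5.58 RPKM (-0.56 ± 0.10). MRPL33, on a transcript of 42.8% GC, went from 40.3 and 35.9 to 28.0 and 28.1 RPKM (-0.43 ± 0.10). Groups did not overlap in any of these 3 genes either. MRPL30 had 11 and 10.8 RPKM in the controls and 8.44 and 8.36 RPKM in the knockdowns, a change of -0.34 ± 0.08. The adjusted p of these 6 genes ran from 0.103 to 0.128, so none passed.

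With 1 library left out, 1 group held a single library and the spread came from the other pair alone. Calls from those fits are therefore not interpreted. Without knockdown 1 the family's median change was -0.17, and without knockdown 2 it was -0.12. Over all alternatives the change of MRPL35 ranged from -0.70 to -0.45, always lower. MRPL3, MRPL13, MRPL47, MRPL33 and MRPL30 were likewise lower under every alternative run.

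Genes higher in both libraries were fewer and mostly GC-rich. MRPL34 (chr19:17292609-17306843, plus strand), a relative of bacterial L34, had 20.3 and 20.9 RPKM in the controls and 26.9 and 25.6 RPKM after knockdown (0.34 ± 0.09, adjusted p 0.131). MRPS12, a relative of bacterial S12 at the decoding site, had 79.5 and 80.9 RPKM and then 106 and 98.8 RPKM (0.35 ± 0.09, adjusted p 0.136). In both genes the 2 knockdown values were above the controls by more than the spread within either pair. MRPL41, a mitochondria-specific protein, had 61.8 and 66.0 RPKM in the controls and 107 and 74.8 RPKM in the knockdowns, both above but far apart (0.48 ± 0.20). MRPL28 went from 41.0 and 41.7 to 46.7 and 51.3 RPKM (0.24 ± 0.09), and MRPL55 from 11.9 and 12.4 to 13.7 and 16.9 RPKM (0.30 ± 0.13). MRPS26 went from 88.3 and 90.2 to 103 and 100.03 RPKM (0.18 ± 0.09). With the GC trend removed MRPL28, MRPL41 and MRPS26 changed sign, to -0.08, -0.01 and -0.16, and MRPL34, MRPS12 and MRPL55 kept theirs; over the family 18 of 78 genes changed sign under that alternative.

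**Figure D4:**
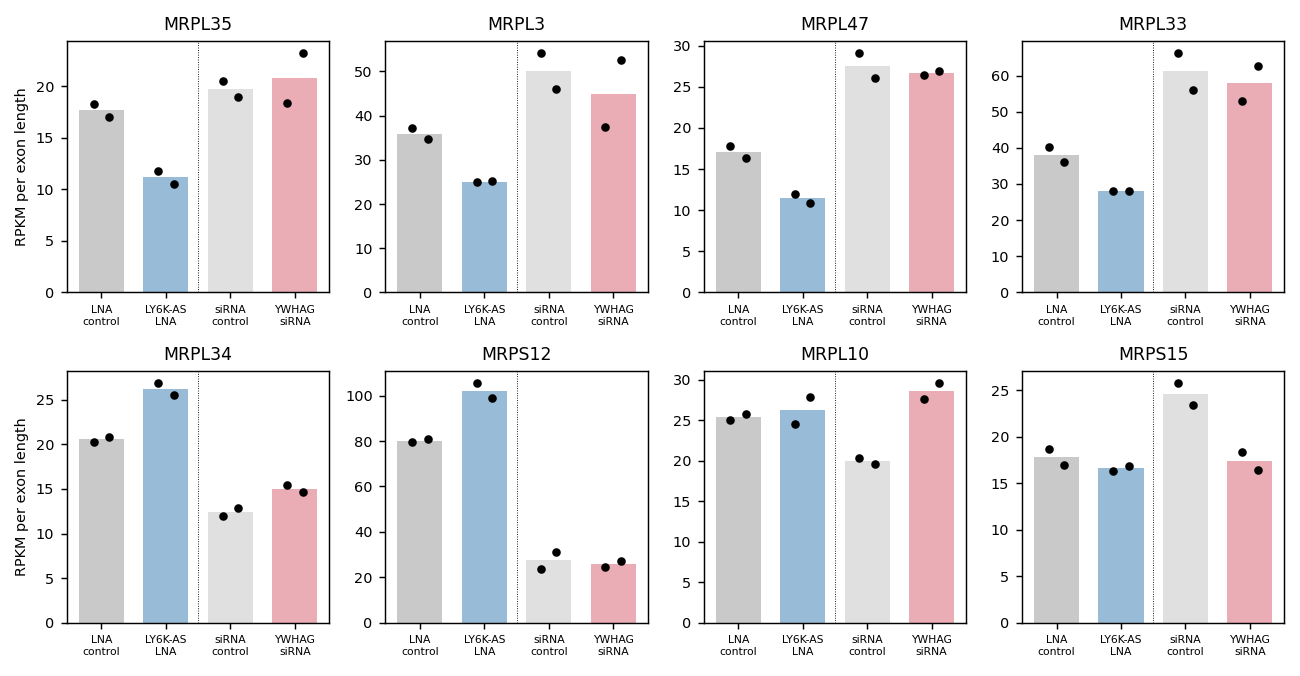
RPKM per exon length in all 8 libraries for 8 named genes; bars are means of 2 libraries, points the single libraries, and the dotted line parts the 2 separately normalized tables. The 4 genes in the upper row have both LY6K-AS knockdown points below both LNA control points, and MRPL34 and MRPS12 have them above. MRPL10 parts only in the siRNA table, and MRPS15 has its knockdown points below both controls in both tables.

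The knockdown libraries disagreed most on 3 genes. MRPS23 had 16.8 and 16.3 RPKM in the controls, 15.0 RPKM in knockdown 1 and 9.07 RPKM in knockdown 2. MRPS25 had 11.4 and 10.4 RPKM, then 10.3 and 6.51 RPKM. MRPL53 had 2.63 and 2.83 RPKM, then 2.59 and 4.65 RPKM. In each of them knockdown 1 stayed near the controls and knockdown 2 departed, downwards in MRPS23 and MRPS25 and upwards in MRPL53. CCDC142, which shares 45.2% of the exon bases of MRPL53, read 3.91 and 4 RPKM in the controls and 4.84 and 9.64 RPKM in the knockdowns.

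MRPL51, the second most abundant member, went from 94.0 and 87.4 to 68.6 and 71.1 RPKM (-0.37 ± 0.09, adjusted p 0.129), without overlap. It shares 31.3% of its exon bases with NCAPD2, a condensin subunit gene on the opposite strand. NCAPD2 went from 45.8 and 48.3 to 27.7 and 24.2 RPKM in the same libraries (-0.84 ± 0.11, adjusted p 0.103). How far reads of one were counted to the other was not tested. Among the other abundant genes MRPS34 went from 128 and 134 to 156 and 133 RPKM, which overlapped, and MRPL15 from 58.4 and 58.5 to 57.6 and 42.6 RPKM. MRPL24 went from 66.1 and 62.6 to 53.4 and 60.9 RPKM (-0.17 ± 0.11).

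Members tied to disease or to special functions gave the following values in the same comparison. MRPL12, the stalk protein also known to bind the mitochondrial RNA polymerase, had 57.7 and 62.5 RPKM in the controls and 57.9 and 51.2 RPKM in the knockdowns, which overlapped. MRPS16 and MRPS22, whose loss causes combined respiratory chain deficiency, went from 49.6 and 48.5 to 45.5 and 44.5 RPKM and from 4.53 and 4.76 to 3.83 and 3.45 RPKM. Both of these were below their controls in both libraries, with changes of -0.12 ± 0.08 and -0.28 ± 0.10. MRPL44, linked to infantile cardiomyopathy, had 22.0 and 22.8 RPKM and then 22.9 and 18.4 RPKM, which overlapped. MRPL58, a peptidyl-tRNA hydrolase built into the large subunit that rescues stalled ribosomes, went from 43.2 and 42.0 to 35.3 and 33.9 RPKM (-0.29 ± 0.08, adjusted p 0.146), without overlap.

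The 3 MRPS18 genes encode different versions of bacterial S18 and did not share a pattern. MRPS18A went from 12.4 and 13.0 to 13.4 and 15.0 RPKM, both above the controls (0.15 ± 0.10). MRPS18B had 10.2 and 9.16 RPKM and then 8.62 and 10.8 RPKM, which overlapped. MRPS18C went from 1.14 and 1.09 to 0.879 and 0.845 RPKM, both below the controls (-0.18 ± 0.10). The sign of MRPS18A turned to -0.04 with the GC trend removed. MRPS30, another large-subunit protein, had 6.5 and 6.77 RPKM and then 6.80 and 5.97 RPKM, which overlapped.

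After YWHAG knockdown the family showed no common direction. Of 77 genes tested 39 were lower and 38 higher, against 57.6% lower among all 13903 genes tested, and the median change was -0.01 against -0.05. Both knockdown libraries were below both controls in 16 genes, against 30.8% of all genes, and above both in 17, against 20.4%. No gene passed the adjusted limma threshold, in the family or in the table (0% of 13903), and the smallest adjusted p in the family was 0.239. At an unadjusted p under 0.05 there were 1 higher gene, against 7.51% of all genes, and 2 lower ones, against 8.9%. The 2 knockdown libraries stood on opposite sides, with medians of -0.10 and 50 genes lower in knockdown 1, and 0.06 and 31 lower in knockdown 2. Over all genes tested 54.8% were lower in knockdown 1 and 57.5% in knockdown 2, with medians of -0.04 and -0.06. The family's median also changed sign with scaling. It was 0.02 with libraries centred on their medians and 0.02 with the GC trend removed, and all alternatives lay between -0.10 and 0.06. The change had a rho of 0.07 with GC content over the 77 genes, while the difference between the 2 siRNA controls had a rho of 0.55.

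Of the members that parted from both siRNA controls, those with the smallest p are given here, the higher ones first. MRPL10 (chr17:47823272-47831534, minus strand), which forms the base of the stalk that carries MRPL12, had 20.4 and 19.6 RPKM in the controls and 27.6 and 29.6 RPKM in the knockdowns (0.50 ± 0.13, adjusted p 0.239). MRPS10 had 20 and 20.7 RPKM and then 28.0 and 24.3 RPKM (0.34 ± 0.14, adjusted p 0.313). MRPL17 had 20.2 and 22.5 RPKM and then 25.4 and 34.4 RPKM (0.45 ± 0.19). The last 2 genes were above the controls with knockdown libraries further apart than the controls were. MRPL2 went from 7.43 and 7.38 to 9.93 and 8.93 RPKM (0.31 ± 0.13), MRPL57 from 10.2 and 12.1 to 13.1 and 16.7 RPKM (0.38 ± 0.17), and MRPL19 from 17.3 and 15.8 to 18.9 and 23.5 RPKM (0.33 ± 0.16). MRPL12, the partner of MRPL10 in the stalk, had 19.2 and 29.3 RPKM in the controls and 24.9 and 30.7 RPKM in the knockdowns, which overlapped.

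On the lower side, MRPS15 (chr1:36455718-36464437, minus strand), whose bacterial relative binds the small ribosomal RNA early in assembly, went from 25.8 and 23.4 to 18.4 and 16.4 RPKM (-0.48 ± 0.14, adjusted p 0.255). MRPL44 went from 35.9 and 34.0 to 26.5 and 25.7 RPKM (-0.41 ± 0.13, adjusted p 0.262). Both were lower in both libraries and under every alternative run. MRPL38 had 0.824 and 0.943 RPKM and then 0.529 and 0.583 RPKM, and MRPL53 1.90 and 2.50 RPKM and then 1.18 and 1.72 RPKM, at levels where the added pseudocount of 1 shrinks a change. MRPL50 went from 20.1 and 17.6 to 14.5 and 15.8 RPKM (-0.29 ± 0.14), and MRPS23 from 13.7 and 14.2 to 11.8 and 11.3 RPKM (-0.25 ± 0.13). MRPS24, below the filter, had 0.189 and 0.322 RPKM in the controls and 0.155 and 0.318 RPKM in the knockdowns.

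The YWHAG knockdown libraries differed most from each other on MRPL9, MRPL24 and MRPS6. MRPL9 had 17.2 and 15.6 RPKM in the controls, 11.1 RPKM in knockdown 1 and 20.1 RPKM in knockdown 2. MRPL24 had 54.4 and 55.5 RPKM and then 47.3 and 71.9 RPKM. These 2 genes were below the controls in knockdown 1 and above them in knockdown 2. MRPS6 had 5.65 and 5.90 RPKM and then 5.49 and 3.43 RPKM, lower mainly in knockdown 2. Among the genes with special roles, MRPS16 went from 39.7 and 39.5 to 37.5 and 32.2 RPKM and MRPS22 from 7.59 and 6.63 to 6.27 and 5.16 RPKM, both below the controls. MRPL58 had 38.1 and 39.4 RPKM and then 37.9 and 47.4 RPKM, and MRPL3 54.3 and 46.0 RPKM and then 37.3 and 52.6 RPKM, and both overlapped.

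The difference between the knockdown effects was tested in 1 limma fit over all 8 libraries. No member passed, against 0.179% of 12861 genes (23 genes), and the smallest adjusted p in the family was 0.109. At an unadjusted p under 0.05, 11 members had a more negative effect of LY6K-AS knockdown, against 8.86% of all genes, and 1 a more positive effect, against 11.5%. The difference was below 0 in 55 of 77 genes, against 45.7% of all genes, and its median was -0.11 against 0.04. With the GC trend removed, an alternative added after the data were seen, 62 of 77 were below 0, against 50.5% of all genes, and the median was -0.18. The 2 effects come from separate tables with separate controls, so the reagent (gapmer or siRNA), the table and the target cannot be told apart.

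MRPS10 had the smallest p for this difference, -0.75 ± 0.18. It went from 16.6 and 14.9 to 10.8 and 12.4 RPKM with the LY6K-AS gapmers, below both controls, and was above both controls after YWHAG siRNA as given above. MRPL19 had a difference of -0.75 ± 0.22, with 16.4 and 16.5 RPKM in the LNA controls and 13.5 and 10.6 RPKM after LY6K-AS knockdown. MRPS17, a relative of bacterial S17, went from 3.82 and 3.61 to 2.49 and 2.80 RPKM in the LNA table and from 1.79 and 1.80 to 2.21 and 2.29 RPKM in the siRNA table (-0.59 ± 0.15). MRPL35 had a difference of -0.68 ± 0.20 and MRPL30 of -0.50 ± 0.15. For MRPL30 the siRNA controls were 18.4 and 17.5 RPKM and the YWHAG knockdowns 21.0 and 19.3 RPKM, so it too was low in one comparison and high in the other. The limma adjusted p of these 5 genes lay between 0.109 and 0.144, and their differences stayed below 0 under every alternative run.

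Counting only genes whose knockdown libraries lay beyond both controls in both tables, 8 were below after LY6K-AS and above after YWHAG knockdown: MRPL19, MRPL30, MRPL32, MRPL57, MRPS9, MRPS10, MRPS17 and MRPS21. They are 10.4% of the 77 members tested in both tables, against 6.1% of 12861 genes. Of the members only MRPL38 had the reverse pattern, or 1.30%, against 8.3% of all genes. There were 12 members below in both, or 15.6% against 11.7%, among them MRPL11, MRPL16, MRPL50, MRPS22 and MRPS23. MRPL28 and MRPL34 were above in both, or 2.60% against 6.38%. No test was made on these shares. MRPL34 had 12 and 12.8 RPKM in the siRNA controls and 15.5 and 14.6 RPKM after YWHAG knockdown (0.26 ± 0.13). MRPL11 had 21.1 and 21.2 RPKM in the LNA controls and 14.3 and 17.6 RPKM after LY6K-AS knockdown, and 20.3 and 21.5 against 18.8 and 14.6 RPKM in the siRNA table. The remaining genes overlapped their controls in at least 1 table.

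**Figure D5:**
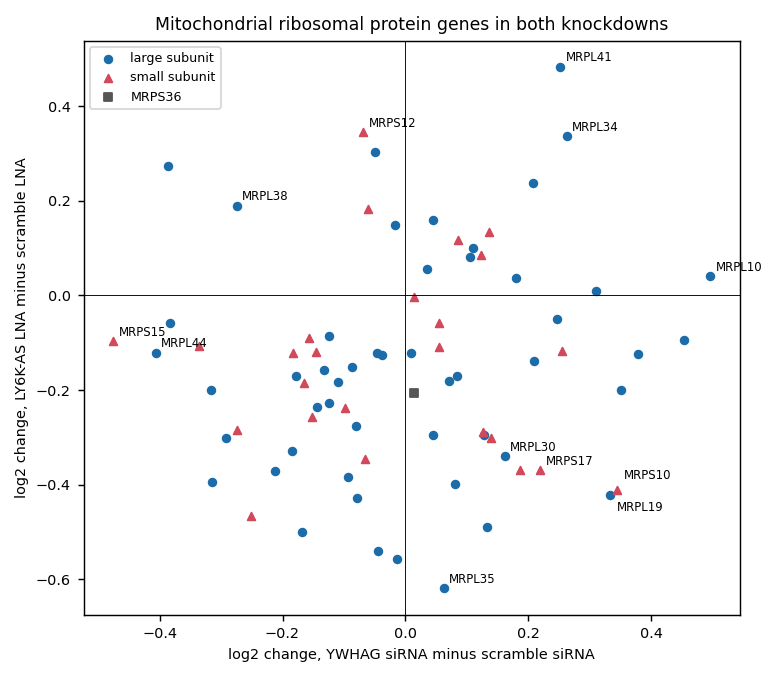
Log2 change after LY6K-AS knockdown (vertical) against log2 change after YWHAG knockdown (horizontal) for the 77 genes tested in both, by subunit. MRPS10, MRPL19, MRPS17 and MRPL30 lie at the lower right, and MRPL34 and MRPL41 in the upper right.

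Other genes of mitochondrial translation were read from lists made by known function. Among all genes tested 49.7% were lower after LY6K-AS and 57.6% after YWHAG knockdown, with medians of 0.002 and -0.05, which are the background for every list here. That background was not matched to the GC content of the lists. Over all genes the LY6K-AS change followed GC content with a Spearman rho of 0.54. The 5 subunit genes without an MRP symbol (DAP3, PTCD3, AURKAIP1, CHCHD1 and GADD45GIP1) had a median of 0.03 after LY6K-AS knockdown, with 4 higher and 1 lower. The lower one, PTCD3, went from 10.1 and 9.30 to 7.62 and 7.12 RPKM (-0.35 ± 0.10). AURKAIP1 had 59.6 and 59.4 RPKM and then 65.5 and 77.7 RPKM. Of 16 translation factors 15 were lower, with a median of -0.15, and none passed the adjusted threshold. SLIRP, which stabilises mitochondrial messenger RNAs together with LRPPRC, went from 20.7 and 19.7 to 13.7 and 15.8 RPKM, and MTIF2, the initiation factor, from 21.6 and 19.6 to 15.9 and 16.0 RPKM. After YWHAG knockdown the same 16 had a median of 0.08 with 6 lower. TUFM, the elongation factor, went from 81.3 and 87.7 to 112 and 119.7 RPKM (0.45 ± 0.13, adjusted p 0.252), and the release factor gene MTRF1 from 1.80 and 1.71 to 2.50 and 2.90 RPKM.

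Assembly factors had medians of -0.05 (16 of 25 lower) and -0.03 (13 of 25 lower) after LY6K-AS and YWHAG knockdown, the second count being near the share of all genes. MTERF3 went from 11.1 and 10.8 to 8.53 and 7.06 RPKM with the gapmers, and FASTKD2 from 8.89 and 7.96 to 6.53 and 4.71 RPKM. METTL15, a methyltransferase of the small ribosomal RNA, went from 4.07 and 3.86 to 3.02 and 2.87 RPKM after YWHAG knockdown, and ERAL1, a chaperone of that RNA, from 50.9 and 44.8 to 35.6 and 40.5 RPKM. In each of these 4 cases both knockdown libraries lay below both controls, and none passed the adjusted threshold. Among 20 mitochondrial aminoacyl-tRNA synthetases and related enzymes 14 were lower after LY6K-AS knockdown (median -0.10) and 16 after YWHAG knockdown (median -0.06). RARS2 went from 11.7 and 11.8 to 9.23 and 7.37 RPKM with the gapmers. After YWHAG knockdown CARS2 went from 1.96 and 2.22 to 3.76 and 3.12 RPKM, and NARS2 from 11 and 9.63 to 6.87 and 7.82 RPKM.

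Of 9 genes for transcription and maintenance of mitochondrial DNA, 5 were lower after LY6K-AS knockdown and 6 after YWHAG knockdown, with medians of -0.15 and -0.05, and both counts were near the shares of all genes. TFAM, which packages mitochondrial DNA and starts its transcription, went from 13.1 and 13.0 to 10.1 and 8.22 RPKM with the gapmers (-0.48 ± 0.12, adjusted p 0.131), and SSBP1 from 10.9 and 10.0 to 7.77 and 6.89 RPKM. TFB2M, the transcription factor that melts the promoter, went from 24.1 and 22.7 to 15.9 and 15.7 RPKM after YWHAG knockdown (-0.54 ± 0.13, adjusted p 0.220). The regulators had medians of -0.05 over 8 tested genes and -0.005 over 9. Among them ESRRA went from 21.1 and 21.5 to 29.1 and 29.8 RPKM with the gapmers (0.45 ± 0.08, adjusted p 0.104), NRF1 from 5 and 5.23 to 4.24 and 3.89 RPKM, and GABPB1, a subunit of the ETS-family GABP, from 4.40 and 4.02 to 3.04 and 3.19 RPKM after YWHAG knockdown.

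The transcripts that these ribosomes translate did not share 1 value in the LY6K-AS libraries. The 13 mitochondrially encoded protein genes had a median difference of 0.07 in knockdown 1 and -0.86 in knockdown 2, and the 2 controls differed by -0.37. The 2 mitochondrial ribosomal RNAs, MT-RNR1 and MT-RNR2, differed from the controls by a median of 0.60 in knockdown 1 and -0.97 in knockdown 2. The nuclear family was lower in both of these libraries, with medians of -0.12 and -0.17. The part of mitochondrial transcript content in the family's values was not tested. After YWHAG knockdown the 13 protein genes had a median change of -0.01 and the 2 ribosomal RNAs -0.15, with knockdown libraries on opposite sides. None of these genes passed the adjusted threshold.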

How the data were processed

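Whole-transcriptome RNA-seq libraries of A549 cells were deposited as RPKM in 2 tables that the authors normalized separately, 1 for the LNA and 1 for the siRNA libraries. Per the submitters' processing notes, the tools were STAR, Subread, featureCounts and Picard and the build hg38, without versions, and counting by strand, the handling of reads that map to several places and the treatment of replicates are not given in the sources used here. Of 66206 identifiers 57055 matched GENCODE 29, 52238 in the same version, as did 73 of the 78 genes. Multiplied by genomic span, the LNA table's values under 30 reads were whole multiples of 1 read for 100% of values (tolerance 0.05 reads), against 7.12 to 10.4% for exon length; in the siRNA table exon length gave 100% and span 58.8 to 60.1%. LNA values were therefore rescaled to merged exon length, which leaves the reads counted unchanged. Whole reads recovered this way served the alternative with limma's voom and TMM factors. The 5 genes of another version (MRPS30, MRPL22, MRPL28, MRPS34 and MRPL12) used lengths not matched to the authors' version, and their reads came out whole for 4 of the 5 in each table.

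Genes with at least 0.5 RPKM in at least 2 of 4 libraries were tested on log2(RPKM + 1), a scale that understates changes of low genes. Tests were made with limma 3.58.1 (R 4.3.3) and a mean-variance trend. They were two-sided with Benjamini-Hochberg adjustment over all genes and 2 residual degrees of freedom per table; the code was tested on simulated data. GC content is that of a gene's transcript sequences in GENCODE 29, pooled over all its transcripts. Exons shared by several transcripts therefore count more than once, unlike in the merged exon length. The 3 GC classes are equal in number. The genes and lists were chosen with earlier results of these data known. Genes are named by these rules: per comparison and direction the 6 smallest p among genes beyond both controls, the 3 with the largest difference between knockdown libraries, the 5 highest and 5 lowest control means, 12 with known roles, 5 for the difference between effects, and 2 per further list. MRPL45, MRPL11, MRPS11 and the genes that share exons were named after their values were seen. Alternatives were other pseudocounts, filters, scalings, deposited values, voom, a GC correction, a pooled spread, a replicate block and each library left out. MRPL13, MRPL15 and MRPS28 promoters were not used here. One gene that the naming rule takes from the lists is not reported here.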

Additional observations from a re-analysis of the deposited data

How the results depend on the processing

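Fits with 1 library left out hold a single library in 1 group, so their counts past the adjusted threshold are not interpreted. Wherever members passed in such fits, many genes outside the family passed too. After LY6K-AS knockdown the median of the 78 genes stayed below 0 in every alternative run, from -0.19 with voom on recovered reads, over 73 genes, to -0.12 with the values as deposited, over 67. With 1 library left out at a time it lay between -0.17 and -0.12, and the number of genes past the adjusted threshold between 0 and 41 (41 without knockdown 1, 32 without knockdown 2, 0 without either control); every other alternative gave 0. For the difference between effects the count lay between 0 and 2 with 1 library left out (1 without LY6K-AS knockdown 1, 2 without YWHAG knockdown 1, 1 without YWHAG knockdown 2), and for YWHAG knockdown it was 0 throughout. With the GC trend removed 18 of the 78 genes changed sign after LY6K-AS knockdown; of the genes named for their small p there, these were MRPL28, MRPL41 and MRPS26, at -0.0816, -0.00903 and -0.160. MRPL2, at 0.01 with all libraries, was 0.25 without LY6K-AS knockdown 1 and -0.23 without LY6K-AS knockdown 2, with a limma adjusted p between 0.0199 and 0.999 over its alternatives; the cause was not tested for these genes. With the label numbers as a replicate block the LY6K-AS comparison called 0 genes with the same median of -0.14, and 3 members were higher and 14 lower at an unadjusted p under 0.05, against 13.5% and 9.94% of all genes; same-numbered libraries correlated at 0.0797 over 14662 genes in their deviations from the group means, so the numbers were not taken as pairs. A paired fit for YWHAG could not be made, since the siRNA control columns are numbered 2 and 3 and the labels 1 and 2, so the columns could not be matched to label numbers. With all libraries kept, the smallest limma adjusted p in the family over the alternatives was 0.0709 after LY6K-AS knockdown and 0.0832 after YWHAG knockdown, both with the spread pooled over 8 libraries.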
